A study of Saccharomyces cerevisiae with 11 samples.

Results

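The comparison set cells that express a polyglutamine-expanded, nuclear huntingtin fragment against cells with a fragment of normal length, both carrying extra *SLX5* on a plasmid. It rested on 6 of the 11 libraries of the series, chosen by their labels: 3 cultures of NLS-Htt103Q cells with *SLX5/CEN* (Htt103Q [*SLX5*]) and 3 of NLS-Htt25Q cells with *SLX5/CEN* (Htt25Q [*SLX5*]). Of the 7126 genes in the count table, 6321 passed the filter on low counts and were all compared. In both strains the fragment was fused to GFP and a nuclear localization signal and was driven by the *GAL* promoter from a construct integrated with a *LEU2* marker in the W303 background. *SLX5* came on a centromeric (*CEN*) plasmid of low copy number with a *HIS3* marker, and the chromosomal *SLX5* gene was present too. Cells were grown at 25°C in synthetic medium with 2% raffinose, induced with 2% galactose for 4 h, and RNA was taken from 3 OD600 of cells. Cultures a, b and c were grown from separate clones. Each Htt length came from a single integrant strain, so Htt length and any other difference between the strains cannot be told apart in any result given here. The transcript of the Htt fragment itself was not analysed here.

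Polyglutamine tracts beyond a threshold length make huntingtin aggregate, and in yeast such fragments engage the chaperones and the proteasome, the machinery that folds or destroys damaged proteins. Slx5 and Slx8 form a SUMO-targeted ubiquitin ligase (STUbL), which adds ubiquitin to proteins that carry the small modifier SUMO and so can send them to the proteasome. In budding yeast, transcription follows growth and stress closely: Msn2 and Msn4 activate the general stress response, Hsf1 the chaperones, Rpn4 the proteasome, and fast growth brings high expression of ribosome biogenesis genes.

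Values are counts-per-million (CPM) scaled by TMM, which corrects for library size and composition. The 6 libraries held between 21475500 and 29440801 estimated counts. Genes of rRNA took 1.61% of the counts in Htt103Q [*SLX5*] a and 2.40% in Htt25Q [*SLX5*] a, against 0.254% to 0.502% in the other 4, and whether this share bears on any result was not tested. The common spread between cultures was equal to a coefficient of variation of 11%, and every pair of cultures within a group differed by more than counting alone gives. On the first principal component of the 6 libraries, which held 68.0% of the variance, Htt103Q [*SLX5*] a, b and c lay at 30.8, 14.8 and 25.3, and the Htt25Q [*SLX5*] cultures between -24.0 and -23.0. Culture b was thus the Htt103Q [*SLX5*] culture nearest to Htt25Q [*SLX5*]. No chromosome was shifted as a whole, since the medians of the 16 nuclear chromosomes lay between -0.08 and 0.01 on the log2 scale. Alpha-specific mating genes were expressed in all 6 cultures, and the mating type is not given in the labels.

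The plasmid gene and the markers differed between the strains. *SLX5* had 494, 752 and 663 CPM in Htt103Q [*SLX5*], against 1216, 1173 and 1147 CPM in Htt25Q [*SLX5*]. The Htt103Q cultures lay below every Htt25Q culture (log2 fold change -0.89, SE 0.13, adjusted p = 0.000317) by edgeR's quasi-likelihood test with Benjamini-Hochberg adjustment over all 6321 genes, the test behind every adjusted p in this comparison. *SLX5* was also lower in Htt103Q [V] than in Htt25Q [V], the strains with empty vector, at 56.4 ± 7.83 against 97.0 ± 3.69 CPM (SD, n = 3 and n = 2). Both Htt103Q groups therefore had the lower transcript of their pair. *HIS3*, the plasmid's marker, had 655, 856 and 809 CPM in Htt103Q [*SLX5*], against 1264, 1270 and 1357 CPM in Htt25Q [*SLX5*], a log2 fold change of -0.75 (SE 0.09). *LEU2*, which encodes an enzyme of leucine synthesis and marks the integrated construct, went the other way, with 7460, 8911 and 7774 CPM in Htt103Q [*SLX5*], against 1159, 1160 and 1254 CPM in Htt25Q [*SLX5*]. The cultures of the groups were far apart (2.76, SE 0.08, adjusted p = 2.77e-09). How many copies of the construct each strain carries was not analysed here, and *LEU2* copy number, Htt length and strain cannot be told apart. *URA3* was lower (-0.31, SE 0.06), and the smaller values of *ADE2* (0.27, SE 0.06) and *TRP1* (-0.27, SE 0.09) passed the test in the fit over all libraries. That of *TRP1* did not pass without Htt25Q [*SLX5*] a (adjusted p = 0.125), Htt25Q [*SLX5*] c (0.0667), Htt103Q [*SLX5*] a (0.0948) or Htt103Q [*SLX5*] c (0.0654). With the 4 libraries of clone letter a in the series left out, *ADE2* did not pass either (0.0962).

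**Figure D1:**
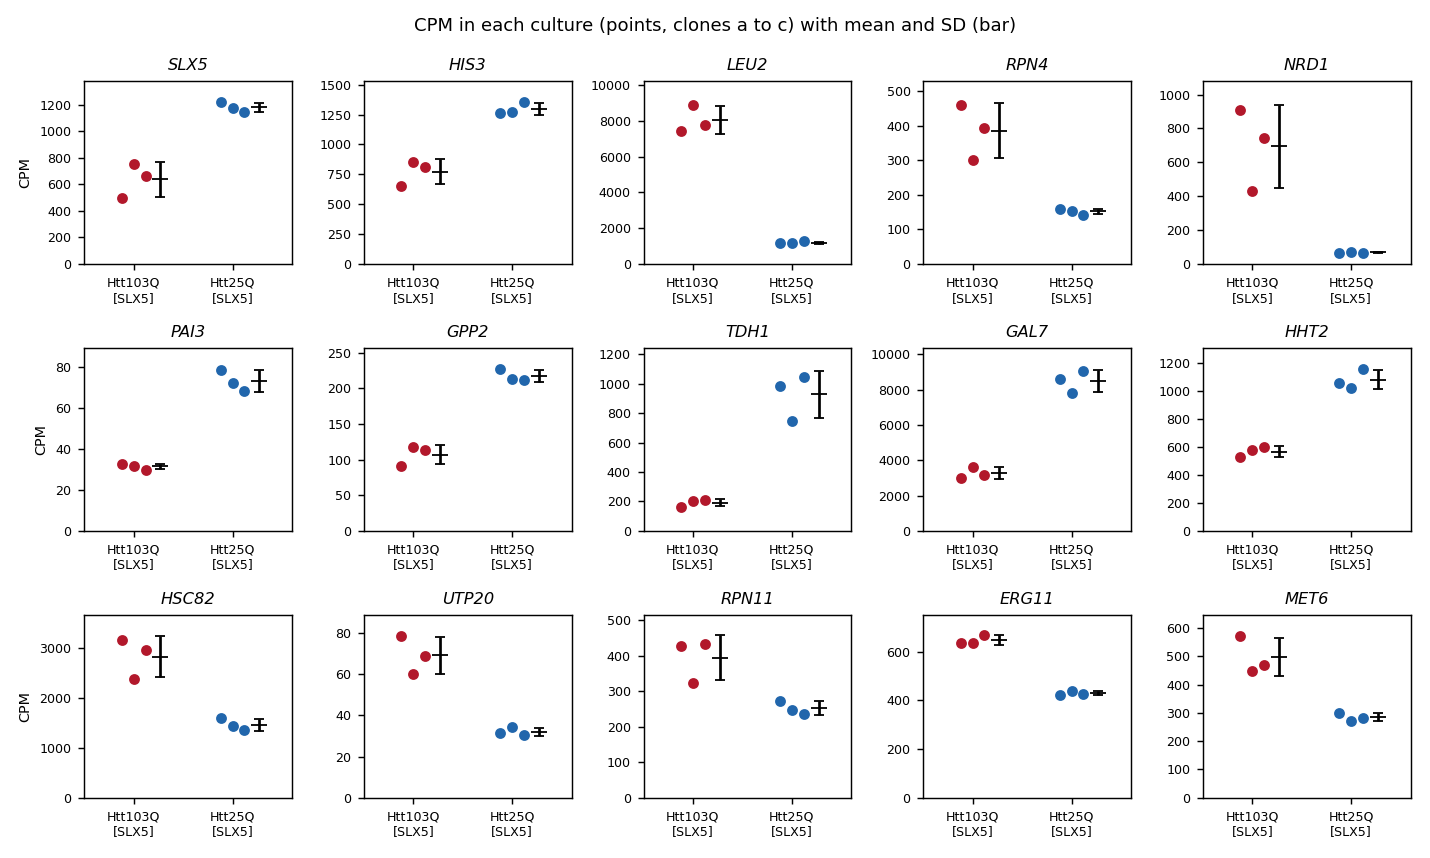
Each panel shows the CPM of a gene in the 3 cultures of Htt103Q [*SLX5*] (red) and the 3 of Htt25Q [*SLX5*] (blue), with the mean and SD as a black bar and an axis from 0. In none of the 15 panels do the cultures of the groups overlap, and *LEU2*, *RPN4*, *NRD1*, *HSC82*, *UTP20*, *RPN11*, *ERG11* and *MET6* are higher in Htt103Q [*SLX5*].

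Expression differed between Htt103Q [*SLX5*] and Htt25Q [*SLX5*] at most tested genes. The test called 3379 of 6321 genes, or 53.5%, at an adjusted p under 0.05: 1698 were higher (26.9%) and 1681 lower (26.6%). Most changes were small, with a median size of 0.46 on the log2 scale among the called genes and 2229 of them under 1.5-fold. The larger changes were mostly rises: 234 genes were called and at least 2-fold higher against 118 lower, and 92 were at least 4-fold higher against 4 lower. Among called genes averaging 10 CPM or more without overlap of the groups, the smallest of the 12 largest rises was *TIR4*. Its log2 fold change of 1.83 was under 4-fold. Most of the 92 were therefore genes under 10 CPM or with overlapping cultures. The median log2 fold change of all tested genes was -0.01. At 4069 genes (64.4%) the 3 cultures of each group did not overlap, and 3307 of these were called. The counts of the lists below are to be read against these shares. Leaving out single libraries gave between 2766 calls, without Htt103Q [*SLX5*] a, and 3643, without Htt103Q [V] c. With the libraries of clone letter a left out, 2115 genes were called, 1051 of them higher, and 2097 of these were among the 3379.

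**Figure D2:**
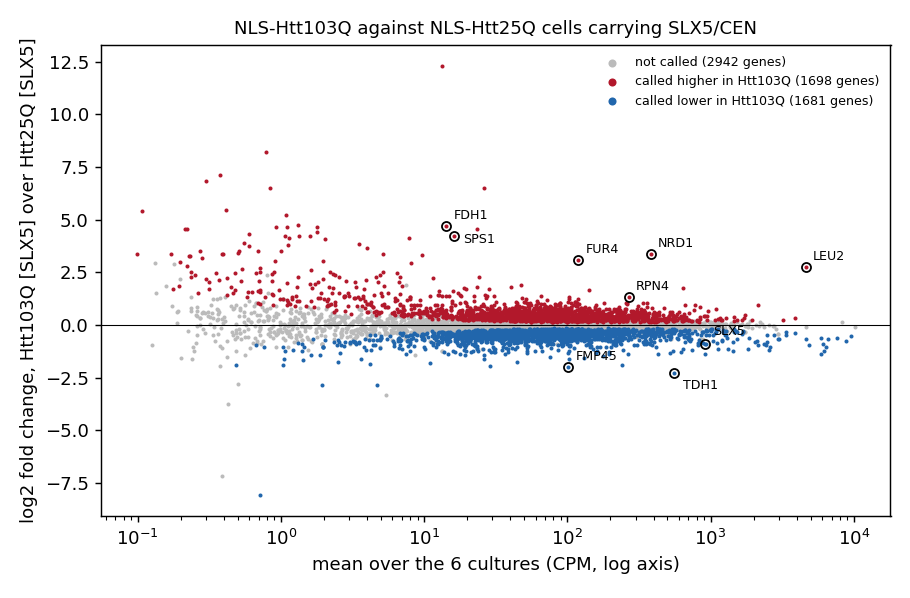
The log2 fold change of Htt103Q [*SLX5*] over Htt25Q [*SLX5*] is plotted against the mean CPM of the 6 cultures on a log axis, with 1698 genes called higher in red, 1681 called lower in blue and the others in grey. The points beyond 4-fold lie above the zero line with few exceptions, and many of them are genes under 10 CPM.

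The largest rise was that of YHR054C, an open reading frame between the *CUP1* metallothionein copies whose sequence resembles part of *RSC30*. It had 28.9, 20.7 and 30.9 CPM in Htt103Q [*SLX5*], against 0 counts in each culture of Htt25Q [*SLX5*]. Against a floor of 3 counts per library this is at least 208-fold higher in Htt103Q [*SLX5*]. The *CUP1-1* and *CUP1-2* copies beside it, named after their values were seen, were each listed at a mean of 97.7 ± 22.1 CPM in Htt103Q [*SLX5*] and 180 ± 9.99 in Htt25Q [*SLX5*]. Identical sequences share their reads, and the *CUP1* copies were listed with equal values, so the value of any copy at this locus is uncertain. YDR042C, of unknown function, had 73.6, 25.9 and 56.3 CPM in Htt103Q [*SLX5*], against 0.947, 0.215 and 0.476 CPM in Htt25Q [*SLX5*] (log2 fold change 6.51, SE 0.48, adjusted p = 7.47e-06). *FDH1*, a formate dehydrogenase, had 30.2, 10.5 and 42.3 CPM in Htt103Q [*SLX5*], against 1.57, 0.430 and 1.11 CPM in Htt25Q [*SLX5*]. Its lowest Htt103Q culture was b, still several times above the highest Htt25Q culture (4.70, SE 0.52). *RRT5*, of unknown function, had 48.6, 32.4 and 52.9 CPM in Htt103Q [*SLX5*], against 2.15, 2.41 and 1.15 CPM in Htt25Q [*SLX5*] (4.55, SE 0.32). *SPS1*, a kinase of spore wall formation, had 37.5, 19.1 and 36.0 CPM in Htt103Q [*SLX5*], against 1.17, 1.76 and 1.98 CPM in Htt25Q [*SLX5*] (4.24, SE 0.31). These genes were near silent in Htt25Q [*SLX5*] and clearly expressed in Htt103Q [*SLX5*].

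Among genes with substantial counts in both groups, *NRD1* and *FUR4* rose most. *NRD1*, which encodes an RNA-binding protein that ends transcription of short noncoding RNAs, had 911, 430 and 741 CPM in Htt103Q [*SLX5*], against 66.0, 70.8 and 66.9 CPM in Htt25Q [*SLX5*] (log2 fold change 3.35, SE 0.23, adjusted p = 4e-06). The Htt25Q cultures were nearly equal, whereas the Htt103Q cultures spread widely, with b lowest. *FUR4*, the uracil permease, had 260, 166 and 212 CPM in Htt103Q [*SLX5*], against 27.9, 24.7 and 21.8 CPM in Htt25Q [*SLX5*] (3.10, SE 0.15, adjusted p = 3.11e-07). YBR284W and YPL245W, of unknown function, rose by 2.28 and 1.90 on the log2 scale, *YSW1*, of the prospore membrane, by 2.25, and *TIR4*, a cell wall mannoprotein, by 1.83. In each of these genes the lowest Htt103Q culture was b.

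Among genes that averaged 10 CPM or more over the 6 cultures, the largest fall was that of *TDH1*, an isozyme of glyceraldehyde-3-phosphate dehydrogenase, with 163, 206 and 207 CPM in Htt103Q [*SLX5*], against 983, 750 and 1048 CPM in Htt25Q [*SLX5*] (log2 fold change -2.27, SE 0.26, adjusted p = 6.04e-05). *FMP45*, a membrane protein of the Sur7 family, had 34.0, 42.5 and 46.6 CPM in Htt103Q [*SLX5*], against 161, 154 and 170 CPM in Htt25Q [*SLX5*] (-1.98, SE 0.13). *EGO4*, of the vacuolar EGO complex, had 76.3, 107 and 120 CPM in Htt103Q [*SLX5*], against 433, 360 and 340 CPM in Htt25Q [*SLX5*] (-1.90, SE 0.29). These falls were smaller than the largest rises. *GPG1*, which encodes a partner of the G protein Gpa2, had 17.3, 23.3 and 20.5 CPM in Htt103Q [*SLX5*], against 69.7, 68.3 and 67.3 CPM in Htt25Q [*SLX5*] (-1.75, SE 0.14). *FIT2*, a cell wall mannoprotein of iron uptake, fell by 1.61 on the log2 scale, *COX26*, of cytochrome c oxidase, by 1.62, the mitochondrial protein gene *FMP16* by 1.56 and the pyruvate kinase isozyme *PYK2* by 1.501. YNL019C and YCL042W, of unknown function, had log2 fold changes of -1.80 and -1.47. The remaining pair of the 12 were the Ty Gag genes YMR051C (-1.93, SE 0.37), and YDR261C-D (-1.41, SE 0.29). Ty copies are nearly identical and share reads, so either value is uncertain. Ty genes as a group, chosen after these values were seen, had 37 of 73 tested copies called lower and 1 higher, with a median of -0.40. All 24 genes kept their call in every alternative that tested them. They had been chosen as the largest called changes without overlap in these same libraries, so this is a description and no independent support. YHR054C had no counts in Htt25Q [*SLX5*] or Htt25Q [V] and passed the filter only through the Htt103Q groups.

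**Figure D3:**
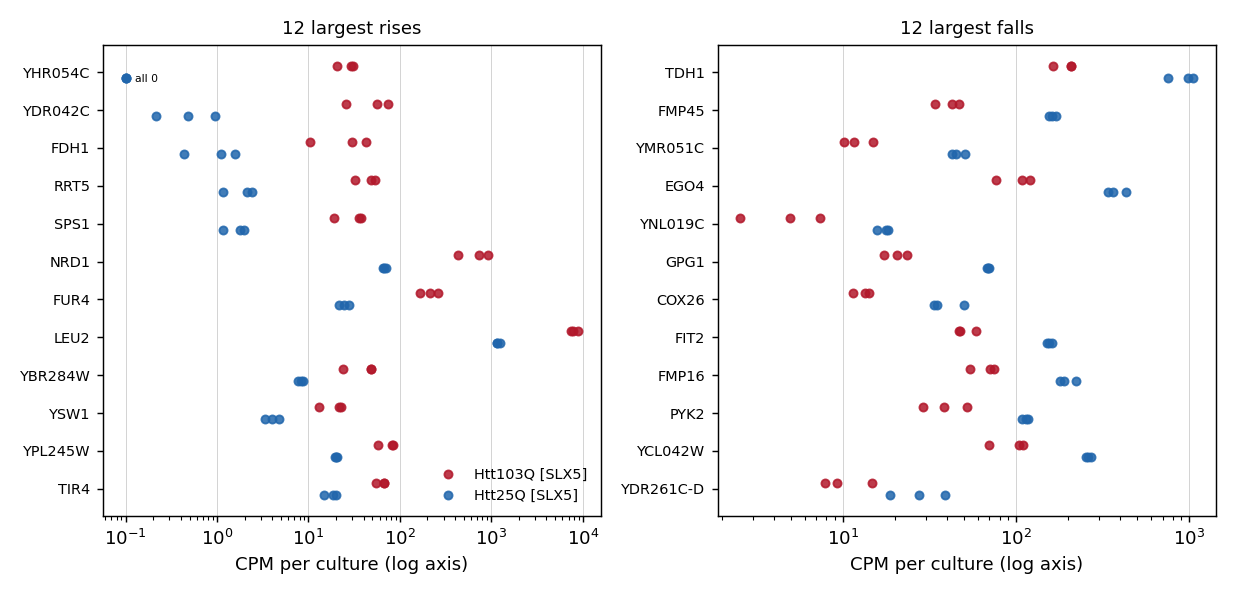
CPM in each culture on a log axis for the 12 largest called rises (left) and falls (right) among genes that averaged at least 10 CPM without overlap, Htt103Q [*SLX5*] in red above Htt25Q [*SLX5*] in blue. For YHR054C the 3 cultures of Htt25Q [*SLX5*] had no count and are drawn at 0.1.

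Genes of the general stress response, the targets of Msn2 and Msn4, were lower in Htt103Q [*SLX5*]. Of 38 genes on the list 30 fell, none rose and 8 did not pass the test, with a median of -0.79 where all tested genes had -0.01. *PAI3*, an inhibitor of proteinase A, had 32.7, 31.8 and 29.9 CPM in Htt103Q [*SLX5*], against 78.8, 72.2 and 68.4 CPM in Htt25Q [*SLX5*] (log2 fold change -1.22, SE 0.09, adjusted p = 8.24e-06). *TSA2*, a thioredoxin peroxidase, had 13.5, 15.2 and 15.7 CPM in Htt103Q [*SLX5*], against 32.6, 31.4 and 31.6 CPM in Htt25Q [*SLX5*] (-1.11, SE 0.10). *GPP2*, which makes glycerol, had 91.5, 117 and 113 CPM in Htt103Q [*SLX5*], against 227, 213 and 213 CPM in Htt25Q [*SLX5*] (-1.02, SE 0.10). In these genes the Htt25Q cultures were all about 2-fold above the Htt103Q cultures. *HSP31*, a chaperone of the DJ-1 family, also fell (-1.08, SE 0.12). Without the clone letter a libraries, 26 of the 38 were lower, with a median of -0.71, and without Htt103Q [V] a, which left the compared cultures as they were and changed the shared spread, 32 were lower and 2 higher. *MSN2* itself had 142, 141 and 151.3 CPM in Htt103Q [*SLX5*], against 147, 140 and 146 CPM in Htt25Q [*SLX5*], with overlapping groups and a log2 fold change of 0.00 (SE 0.08). *MSN4* was higher (0.34, SE 0.10), but not without Htt25Q [*SLX5*] b (adjusted p = 0.0517) or Htt103Q [*SLX5*] a (0.0568).

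The stress element that Msn2 and Msn4 bind, AGGGG on either strand, was looked for in the 500 bases before each start codon, in RefSeq R64. It lay there in 36 of the 38 stress genes and in 34.2% of the 5773 tested genes with such a window. The list is one of Msn2 and Msn4 targets, so its high share describes the list and tests nothing. Of 104 genes called and at least 2-fold lower 60.6% held it, against 31.1% of 183 at least 2-fold higher. The 104 include genes of the stress list, such as *PAI3* and *TSA2*. Among all genes called lower the share was 37.9%, and among all called higher 30.6%. A match is a stretch of letters and no evidence of binding. The 4 stress genes described above are shown with 10 bases to each side, the match (AGGGG, or CCCCT for the other strand) in capitals, read along the strand of the gene.
PAI3, chrXIII:610480-610504, minus strand: cgggaatctcAGGGGcgaccgcccc
TSA2, chrIV:1365916-1365940, minus strand: gggctgatccCCCCTtacaattggc
GPP2, chrV:280942-280966, minus strand: catagctgccCCCCTaaacgggcct
HSP31, chrIV:1502368-1502392, minus strand: gcttggcataAGGGGcatgtacata

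Reserve carbohydrate genes had negative medians and fewer calls than the stress genes. Over all tested genes 26.6% were lower and 26.9% higher. Of 13 genes of glycogen metabolism 5 fell and 2 rose, with a median of -0.21. *GDB1*, the debranching enzyme, had 339, 446 and 432 CPM in Htt103Q [*SLX5*], against 925, 841 and 878 CPM in Htt25Q [*SLX5*] (log2 fold change -1.12, SE 0.17, adjusted p = 0.000329). *GPH1*, glycogen phosphorylase, was lower (-1.40, SE 0.32), as were the synthase gene *GSY2* (-0.60, SE 0.13) and *UGP1*, which makes UDP-glucose (-0.74, SE 0.18). The rises were those of *GAC1* and *PIG1*, regulatory subunits of the phosphatase that acts on glycogen synthase, at 0.54 and 0.42, and neither passed the test without Htt25Q [*SLX5*] b or without Htt103Q [*SLX5*] a. Of 7 trehalose genes the trehalases *NTH1* (-0.76, SE 0.15) and *NTH2* (-0.36, SE 0.11) fell, and the call of *NTH2* was lost without Htt25Q [*SLX5*] c (adjusted p = 0.0578) or Htt103Q [*SLX5*] c (0.0571). The synthesis genes *TSL1* (adjusted p = 0.0517) and *TPS1* (0.0606) missed the threshold, and the list's median was -0.28. Between 1 (without Htt25Q [*SLX5*] c) and 4 (without Htt103Q [V] a) trehalose genes were lower when single libraries were left out.

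Galactose genes were lower in Htt103Q [*SLX5*], although both strains received the same galactose. Of 10 genes 9 fell, and *GAL4*, the activator, named after its value was seen, did not pass the test (adjusted p = 0.347). *GAL7*, a transferase of galactose breakdown, had 3011, 3631 and 3171 CPM in Htt103Q [*SLX5*], against 8585, 7832 and 9056 CPM in Htt25Q [*SLX5*] (log2 fold change -1.38, SE 0.19, adjusted p = 0.000159). *GAL10*, the epimerase, had 3839, 4864 and 4266 CPM in Htt103Q [*SLX5*], against 8142, 7600 and 8169 CPM in Htt25Q [*SLX5*] (-0.88, SE 0.15). *GCY1* and *LAP3*, further targets of Gal4, fell by 0.94 and 0.77 on the log2 scale. The list's median was -0.83, and all 9 were lower without the clone letter a libraries as well. The Htt construct is driven by the same regulators, and its level in each strain was not analysed here, so weaker *GAL* induction and an effect of Htt length cannot be told apart.

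Glycolysis and fermentation followed the same direction: 19 of 24 genes fell, 3 rose and 2 did not pass the test, with a median of -0.53. *FBA1*, the aldolase, had 5978, 6998 and 6706 CPM in Htt103Q [*SLX5*], against 11570, 10340 and 11140 CPM in Htt25Q [*SLX5*] (log2 fold change -0.75, SE 0.08, adjusted p = 5.46e-05). *TPI1*, triose phosphate isomerase, had 1728, 1792 and 1925 CPM in Htt103Q [*SLX5*], against 3522, 2885 and 3039 CPM in Htt25Q [*SLX5*] (-0.80, SE 0.11) and *CDC19*, the main pyruvate kinase, was lower (-0.62, SE 0.08). Isozymes did not change evenly, and *TDH2*, *TDH3* and *PDC1* are named after their values were seen. Per length, the 3 genes of glyceraldehyde-3-phosphate dehydrogenase had levels of 148 ± 17.8 TPM in Htt103Q [*SLX5*] and 657 ± 106 TPM in Htt25Q [*SLX5*] in *TDH1*, 1270 ± 157 TPM in Htt103Q [*SLX5*] and 2168 ± 138 TPM in Htt25Q [*SLX5*] in *TDH2* and 6015 ± 337 TPM in Htt103Q [*SLX5*] and 8001 ± 243 TPM in Htt25Q [*SLX5*] in *TDH3* (SD, n = 3 each). *TDH1* had the lowest level in both groups and *TDH3* the highest. For pyruvate kinase, *CDC19* stood at 2220 ± 184 TPM in Htt103Q [*SLX5*] and 3150 ± 147 TPM in Htt25Q [*SLX5*] and *PYK2* at 18.6 ± 5.04 TPM in Htt103Q [*SLX5*] and 48.7 ± 2.91 TPM in Htt25Q [*SLX5*], and *PYK2* had the larger fall, at -1.501 against -0.62. The genes that rose were *PDC5* (0.80, SE 0.13) and *PDC6* (0.97, SE 0.25), minor isozymes of pyruvate decarboxylase, and *ADH4* (0.26, SE 0.10). The main decarboxylase gene *PDC1* had a log2 fold change of -1.06 and a level of 1715 ± 347 TPM in Htt103Q [*SLX5*] and 3297 ± 29.8 TPM in Htt25Q [*SLX5*]. *PDC6* did not pass without the clone letter a libraries (adjusted p = 0.0919). The call of *ADH4* was lost without Htt103Q [*SLX5*] a (adjusted p = 0.0731) or c (0.184), without Htt25Q [*SLX5*] a (0.0947), b (0.0907) or c (0.124), without Htt25Q [V] a (0.0648) or b (0.0652) and without Htt103Q [V] b (0.0605).

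**Figure D4:**
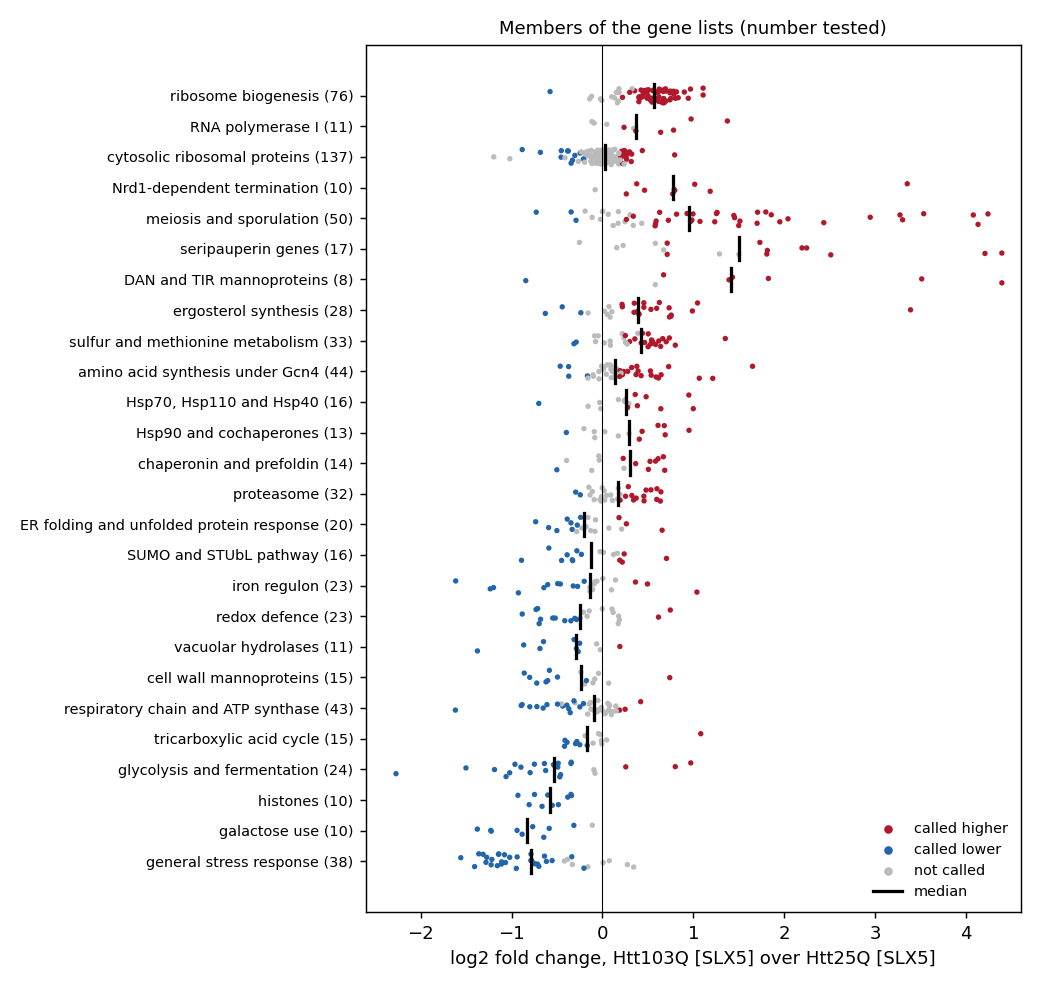
Each point is the log2 fold change of Htt103Q [*SLX5*] over Htt25Q [*SLX5*] of a tested list member, red where called higher, blue where called lower and grey otherwise, with the list's median as a black bar. Ribosome biogenesis (76 genes, median 0.56) lies right of zero and the general stress response (38 genes, median -0.79) left of it, while the 137 cytosolic ribosomal protein genes centre near 0.

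Chaperone genes, which Hsf1 controls, were higher for a part of each family. Among 13 genes of Hsp90 and its cochaperones 6 rose and 1 fell, with a median of 0.29. *HSC82*, the constitutive Hsp90 gene, had 3141, 2365 and 2954 CPM in Htt103Q [*SLX5*], against 1590, 1434 and 1348 CPM in Htt25Q [*SLX5*] (log2 fold change 0.95, SE 0.11, adjusted p = 5.84e-05). Every Htt103Q culture exceeded every Htt25Q culture, with b lowest. The cochaperone genes *CPR6* (0.69, SE 0.10), *SGT1* (0.61, SE 0.09) and *STI1* (0.41, SE 0.08) rose too, and *TAH1*, of the R2TP complex, fell (-0.40, SE 0.10). Without Htt103Q [*SLX5*] a, 2 of these genes were lower, and without the clone letter a libraries none was. Of 16 genes of Hsp70, Hsp110 and Hsp40 proteins 9 rose and 1 fell, with a median of 0.27. *YDJ1*, the main Hsp40 of the cytosol, had 938, 786 and 904 CPM in Htt103Q [*SLX5*], against 468, 477 and 415 CPM in Htt25Q [*SLX5*] (0.95, SE 0.10). *SSA3*, a stress-induced Hsp70, had 108, 68.1 and 86.0 CPM in Htt103Q [*SLX5*], against 45.3, 45.1 and 40.5 CPM in Htt25Q [*SLX5*] (1.0, SE 0.17). *APJ1*, an Hsp40 that acts on aggregates and SUMO-modified proteins, was higher as well (0.64, SE 0.10), while *SSE2*, an Hsp110, was lower (-0.70, SE 0.13), with 2 lower without Htt103Q [*SLX5*] b.

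The factors that sort or dissolve aggregates did not move together. *CUR1*, which directs misfolded proteins to the nucleus, had 77.9, 59.0 and 67.9 CPM in Htt103Q [*SLX5*], against 33.9, 27.3 and 22.04 CPM in Htt25Q [*SLX5*] (log2 fold change 1.30, SE 0.15, adjusted p = 7.25e-05). *BTN2*, its paralog, had 272, 196 and 256 CPM in Htt103Q [*SLX5*], against 153, 109 and 91.7 CPM in Htt25Q [*SLX5*] (1.04, SE 0.18). In both the lowest Htt103Q culture stayed above the highest Htt25Q culture. *HSP104*, the disaggregase, had 1529, 1289 and 1531 CPM in Htt103Q [*SLX5*], against 1476, 1217 and 1304 CPM in Htt25Q [*SLX5*], where the groups overlapped (0.12, SE 0.13, adjusted p = 0.468). *HSF1* itself was slightly lower (-0.29, SE 0.07). TTCNNGAA (N is any base), part of the heat shock element, lay in the 500 bases before the start codon of 21.1% of the 5773 tested genes. It lay before 21.4% of the genes called higher and 21.5% of those called lower. Of those at least 2-fold higher 15.8% held it, against 24.0% of those at least 2-fold lower. In the Hsp90 and Hsp70 lists the shares were 69.2% and 62.5%. Of the 14 genes of the chaperonin and prefoldin, 8 rose, among them *CCT3* (0.58, SE 0.08), *CCT5* (0.69, SE 0.10), *CCT7* (0.61, SE 0.10) and *CCT4* (0.52, SE 0.08), subunits of the ring that folds actin and tubulin, whereas the prefoldin gene *PAC10* fell (-0.50, SE 0.09). The 8 that rose were the chaperonin subunits, the weakest of them *CCT6* (adjusted p = 0.0488, named after its value was seen), and 2 of the 14 were lower without Htt103Q [*SLX5*] c. Mitochondrial chaperones had 5 of 7 higher, such as *MDJ1* (0.72, SE 0.11) and *HSP60* (0.35, SE 0.07), with *ECM10* lower (-1.15, SE 0.16), and 3 of them were higher without Htt25Q [*SLX5*] b. The endoplasmic reticulum stood apart: of 20 folding and unfolded protein response genes 8 fell and 3 rose, with a median of -0.20. *FPR2*, a prolyl isomerase (-0.73, SE 0.11), *PDI1* (-0.33, SE 0.06) and *CNE1*, the calnexin (-0.50, SE 0.10) fell, and *MPD2*, a disulfide isomerase, rose (0.66, SE 0.07). The other rises, *ERO1* at 0.26 and *IRE1* at 0.18, were both lost without Htt25Q [*SLX5*] b or c or Htt103Q [*SLX5*] c, and the lower genes numbered 5 without Htt103Q [*SLX5*] a. *HAC1*, the activator of this response, was at -0.39 (SE 0.14), and its call was lost without Htt103Q [*SLX5*] a (adjusted p = 0.126) and without Htt25Q [*SLX5*] a (0.0592), b (0.0667) or c (0.0745).

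Part of the proteasome genes rose, as did their activator. *RPN4*, a short-lived transcription factor that the proteasome itself destroys, had 460, 302 and 394 CPM in Htt103Q [*SLX5*], against 159, 153 and 143 CPM in Htt25Q [*SLX5*] (log2 fold change 1.34, SE 0.13, adjusted p = 2.5e-05). The lowest Htt103Q culture, b, stood well above every Htt25Q culture. Of 32 subunit genes 14 rose, 2 fell and 16 did not pass the test, with a median of 0.17. *RPT2*, an ATPase of the regulatory particle, had 836, 601 and 772 CPM in Htt103Q [*SLX5*], against 484, 479 and 457 CPM in Htt25Q [*SLX5*] (0.64, SE 0.10). *RPN11*, the subunit that removes ubiquitin chains, had 428, 322 and 433 CPM in Htt103Q [*SLX5*], against 273, 247 and 237 CPM in Htt25Q [*SLX5*] (0.64, SE 0.11). *RPT3* (0.60, SE 0.11) and *RPN1* (0.53, SE 0.10) followed, and the core particle genes *PRE3* (-0.29, SE 0.06) and *PRE5* (-0.24, SE 0.06) fell. In *RPT2*, *RPN11*, *RPT3* and *RPN1* alike, Htt103Q [*SLX5*] b was the lowest of its group. Without the clone letter a libraries, 8 rose and 1 fell.

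The Rpn4 element GGTGGCAAA, searched on both strands, lay in the 500 bases before the start codon of 27 of the 32 proteasome genes and of 1.66% of all 5773 tested genes. Rpn4 activates the proteasome genes, so the share in their list describes the list and tests nothing. It lay before 2.45% of the genes called higher and 1.32% of those called lower. Of genes called and at least 2-fold higher 2.19% held it, against 3.85% of those at least 2-fold lower. It is shown in capitals for the 4 subunit genes with the smallest adjusted p, in RefSeq R64 and along the strand of the gene.
RPT2, chrIV:437906-437934, plus strand: gtttttctccGGTGGCAAAtgtctctttt
RPN11, chrVI:153259-153287, plus strand: ggacctccaaGGTGGCAAAttcacaagaa
RPT3, chrIV:1261495-1261523, plus strand: ctgaaagtaaGGTGGCAAAatagtaaatc
RPN1, chrVIII:164838-164866, minus strand: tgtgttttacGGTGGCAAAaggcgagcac

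The SUMO and STUbL pathway had 8 of 16 genes lower and 4 higher, with a median of -0.13. Apart from *SLX5*, the SUMO protease gene *WSS1* (log2 fold change -0.59, SE 0.10) and *NPL4*, a cofactor of Cdc48 (-0.33, SE 0.06) fell. *SLX8*, the other STUbL subunit, named after its value was seen, had 33.6, 42.0 and 36.1 CPM in Htt103Q [*SLX5*], against 47.4, 51.7 and 47.0 CPM in Htt25Q [*SLX5*] (-0.39, SE 0.09, adjusted p = 0.00392). *UFD1*, the further Cdc48 cofactor, had 176, 132 and 177 CPM in Htt103Q [*SLX5*], against 102, 101.3 and 94.6 CPM in Htt25Q [*SLX5*] (0.70, SE 0.10), and its cultures did not overlap. The rises of the SUMO ligase gene *SIZ1* (0.22, SE 0.06) and the SUMO proteases *ULP1* (0.24, SE 0.07) and *ULP2* (0.19, SE 0.06) were small, and the calls of the proteases were lost without Htt25Q [*SLX5*] c (adjusted p = 0.0688 and 0.069). With the clone letter a libraries left out, 5 were lower and 1 higher.

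Ribosome biogenesis genes were broadly higher in Htt103Q [*SLX5*]. Of 76 genes 63 rose, 1 fell and 12 did not pass the test, with a median of 0.56, and 55 were higher without the clone letter a libraries. *UTP20*, of the small-subunit processome, had 78.3, 60.3 and 68.8 CPM in Htt103Q [*SLX5*], against 31.2, 34.4 and 30.7 CPM in Htt25Q [*SLX5*] (log2 fold change 1.11, SE 0.11, adjusted p = 3.31e-05). *BRX1*, a factor of the large subunit, had 235, 176 and 212 CPM in Htt103Q [*SLX5*], against 108, 108 and 108 CPM in Htt25Q [*SLX5*] (0.95, SE 0.11). *NOP56*, a core protein of box C/D particles, had 372, 311 and 348 CPM in Htt103Q [*SLX5*], against 223, 224 and 222 CPM in Htt25Q [*SLX5*] (0.63, SE 0.07). The Htt25Q cultures of these genes were almost equal and all Htt103Q cultures exceeded them. Another of them, *NOC2*, was higher (0.57, SE 0.06) and *NOC4* the exception that fell (-0.58, SE 0.09). RNA polymerase I, which makes the rRNA precursor, had 6 of 11 genes higher and none lower, with a median of 0.37. *RRN3*, its initiation factor, averaged 94.1 ± 12.1 CPM in Htt103Q [*SLX5*] and 36.3 ± 0.465 CPM in Htt25Q [*SLX5*] (1.38, SE 0.12, adjusted p = 1.72e-05). *RPA190*, its largest subunit, had 125, 98.8 and 113 CPM in Htt103Q [*SLX5*], against 53.2, 65.8 and 52.2 CPM in Htt25Q [*SLX5*] (0.98, SE 0.12) and *RPA49* and *RPA43* were higher by 0.78 and 0.64. *SFP1*, an activator of these genes, was at 0.22 (adjusted p = 0.0103).

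Ribosomal protein genes did not share this rise. Of 137 genes of cytosolic ribosomal proteins 19 rose, 12 fell and 106 did not pass the test, with a median of 0.03, where 53.5% of all tested genes were called. *RPL7B* rose (log2 fold change 0.80, SE 0.15) and *RPL8A* (-0.88, SE 0.15), *RPS9A* (-0.68, SE 0.12) and *RPL9B* (-0.38, SE 0.07) fell. These are members of duplicated pairs, and reads shared between copies make each value uncertain. The counts moved with single libraries: 9 rose without Htt25Q [*SLX5*] c and 33 without Htt103Q [V] c, and 6 fell without Htt103Q [*SLX5*] a and 19 without Htt103Q [*SLX5*] b. Of 67 mitochondrial ribosomal protein genes 6 rose, such as *MRPS18* (0.47, SE 0.06), and 14 fell, such as *MRP20* (-0.36, SE 0.07), or 8 without Htt103Q [*SLX5*] a.

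Ribosome biogenesis promoters often hold the PAC motif GATGAG and the RRPE motif AAAATTTT. GATGAG, on either strand, lay in the 500 bases before the start codon of 90.8% of the 76 biogenesis genes, 90.9% of the 11 polymerase I genes and 28.2% of all 5773 tested genes. It lay before 33.9% of the genes called higher and 23.8% of those called lower. Of those at least 2-fold higher 29.5% held it, against 26.9% of those at least 2-fold lower. AAAATTTT lay in 82.9% of the biogenesis genes and 12.7% of all, in 19.7% of the genes called higher against 8.53% of those called lower, and in 12.02% of those at least 2-fold higher against 6.73% of those at least 2-fold lower. The PAC match is in capitals (CTCATC on the other strand) in the windows of 5 of the genes with values above, in RefSeq R64 and along the strand of the gene.
RRN3, chrXI:208063-208088, plus strand: aagatattttGATGAGcatctctcgt
RPA190, chrXV:960810-960835, plus strand: caaatctcatCTCATCtcttaaaaag
UTP20, chrII:227454-227479, plus strand: aatttttaccGATGAGcattgaaaag
BRX1, chrXV:186854-186879, minus strand: attttagatgCTCATCgcgatggttc
NOP56, chrXII:545960-545985, plus strand: ttttttgagtGATGAGatgggaaatg

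Genes of Nrd1-dependent termination rose, and *NRD1* itself is on their list. Of 10 genes for the Nrd1 complex, its helicase and the nuclear exosome cofactors that trim its products, 9 rose and none fell, with a median of 0.78. *PCF11*, a cleavage factor that binds RNA polymerase II, had 108, 87.7 and 107 CPM in Htt103Q [*SLX5*], against 45.1, 43.0 and 44.7 CPM in Htt25Q [*SLX5*] (log2 fold change 1.19, SE 0.08, adjusted p = 5.2e-06). *SEN1*, the helicase of the complex, had 137, 120 and 128 CPM in Htt103Q [*SLX5*], against 69.1, 77.2 and 75.6 CPM in Htt25Q [*SLX5*] (0.80, SE 0.08). *LRP1*, a partner of the exosome, had 116, 97.7 and 116 CPM in Htt103Q [*SLX5*], against 54.5, 57.8 and 50.7 CPM in Htt25Q [*SLX5*] (1.02, SE 0.09). None of these overlapped between the groups, and 7 of the 10 were higher without the clone letter a libraries. *IMD2*, of GTP synthesis and a textbook case of control by early termination, was higher (1.10, SE 0.17), as was *ADE6* of purine synthesis (0.50, SE 0.08). Across the 26 purine, pyrimidine and uracil genes 9 rose and 5 fell, with a median of 0.02. The falls were *URA10* (-1.11, SE 0.22), *URA5* (-0.36, SE 0.07), *ADE1* (-0.25, SE 0.07), *ADE16* (-0.23, SE 0.08) and *URA8* (-0.44, SE 0.13), of which 3 remained without Htt25Q [*SLX5*] a.

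Many meiosis and sporulation genes, normally silent in cells that divide, had more counts in Htt103Q [*SLX5*]. Of 52 genes 50 passed the filter, 34 rose and 3 fell, with a median of 0.95. Members seen in a single group can pass the filter only by being high there, so these counts describe the list and test nothing. *GAS2*, a spore wall enzyme, had 16.3, 12.03 and 14.8 CPM in Htt103Q [*SLX5*], against 1.82, 2.28 and 1.51 CPM in Htt25Q [*SLX5*] (log2 fold change 2.95, SE 0.18, adjusted p = 2.03e-06). *SPO19*, a meiosis-specific protein, had 17.6, 8.39 and 18.6 CPM in Htt103Q [*SLX5*], against 0.802, 0.818 and 0.912 CPM in Htt25Q [*SLX5*] (4.13, SE 0.31) and *REC104*, of meiotic recombination, was higher (3.30, SE 0.34). In RNA from whole cultures, more cells in a state and more RNA per cell cannot be told apart. *SPO22* fell (-0.73, SE 0.09), as did *SPO1* and *IME4* by 0.34 and 0.29 on the log2 scale. The last pair lost their calls without Htt103Q [*SLX5*] a (adjusted p = 0.0583 and 0.0577) and *SPO1* also without Htt25Q [*SLX5*] a (0.0671). *IME1*, the master inducer of meiosis, named after its value was seen, had 9.56, 9.88 and 8.96 CPM in Htt103Q [*SLX5*], against 10.02, 8.52 and 8.60 CPM in Htt25Q [*SLX5*] (0.06, SE 0.17, adjusted p = 0.77).

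Among low-oxygen genes, most *DAN* and *TIR* genes and many seripauperin genes showed the same kind of rise from low levels. *DAN1*, a mannoprotein of anaerobic cells, had 2.58, 1.12 and 1.87 CPM in Htt103Q [*SLX5*], against 0.109, 0.215 and 0.159 CPM in Htt25Q [*SLX5*] (log2 fold change 3.51, SE 0.42). *TIR3*, a related mannoprotein, had 20.1, 14.5 and 21.4 CPM in Htt103Q [*SLX5*], against 7.58, 5.86 and 7.29 CPM in Htt25Q [*SLX5*] (1.43, SE 0.16, adjusted p = 5.4e-05). Of 8 *DAN* and *TIR* genes 6 rose and *DAN4* fell (-0.84, SE 0.11), with a median of 1.41. Of 24 seripauperin genes 17 passed the filter and 10 rose, *PAU10*, *PAU12*, *PAU15* and *PAU24* with the smallest adjusted p, and none fell. As for the meiosis genes, members near 0 in Htt25Q [*SLX5*] pass the filter only by being high in another group, so these counts are a description. Their copies share reads, so each value is uncertain. Ergosterol synthesis, which needs oxygen, had 19 of 28 genes higher and 3 lower, with a median of 0.39. *HMG1*, the rate-limiting reductase, had 308, 290 and 272 CPM in Htt103Q [*SLX5*], against 161, 174 and 188 CPM in Htt25Q [*SLX5*] (0.73, SE 0.08, adjusted p = 4.79e-05). *ERG11*, the target of azole drugs, had 638, 638 and 671 CPM in Htt103Q [*SLX5*], against 423, 438 and 426 CPM in Htt25Q [*SLX5*] (0.60, SE 0.07). The 3 cultures of each group were close to each other here. *IDI1*, an isomerase of the same pathway, was at 0.53 (SE 0.06) and *HES1*, a sterol-binding protein, at 3.39 (SE 0.27). The falls were *HMG2*, the other reductase (-0.63, SE 0.11), *MVD1* (-0.24, SE 0.07) and *UPC2*, the activator of sterol genes (-0.44, SE 0.12). That of *MVD1* was lost without Htt103Q [*SLX5*] c (adjusted p = 0.0612).

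Sulfur and methionine metabolism rose in 20 of 33 genes and fell in 2, with a median of 0.43. *MET6*, methionine synthase, had 572, 447 and 469 CPM in Htt103Q [*SLX5*], against 301, 271 and 282 CPM in Htt25Q [*SLX5*] (log2 fold change 0.80, SE 0.11, adjusted p = 0.000192). *SAM4*, a methyltransferase that recycles S-adenosylmethionine, had 268, 232 and 246 CPM in Htt103Q [*SLX5*], against 154, 172 and 160 CPM in Htt25Q [*SLX5*] (0.62, SE 0.08). *MET5* and *MET3*, of sulfate reduction, were higher by 0.74 and 0.66, and *MET4*, the activator of the pathway, by 0.47. The falls were those of the sulfate permeases *SUL1* (-0.29, SE 0.07) and *SUL2* (-0.31, SE 0.09) and *SUL2* did not pass without Htt103Q [*SLX5*] b (adjusted p = 0.0552).

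Amino acid synthesis genes under Gcn4 had 19 of 44 higher and 4 lower, with a median of 0.14, and 12 were higher without Htt25Q [*SLX5*] a. *SER3*, of serine synthesis, had 235, 203 and 207 CPM in Htt103Q [*SLX5*], against 71.6, 67.3 and 66.4 CPM in Htt25Q [*SLX5*] (log2 fold change 1.65, SE 0.08, adjusted p = 2.65e-07). *LEU9*, of leucine synthesis, had 174, 156 and 169 CPM in Htt103Q [*SLX5*], against 63.9, 81.0 and 70.4 CPM in Htt25Q [*SLX5*] (1.21, SE 0.14). *ARG5,6*, of arginine synthesis, and *TRP4*, of tryptophan synthesis, were higher by 1.07 and 0.53. *GCN4* had 1207, 1108 and 1201 CPM in Htt103Q [*SLX5*], against 1234, 1172 and 1203 CPM in Htt25Q [*SLX5*], with overlap (-0.04, SE 0.07, adjusted p = 0.666). The lower genes were *HIS2* (-0.37, SE 0.07), and the lysine genes *LYS9* (-0.46, SE 0.06), *LYS12* (-0.37, SE 0.08) and *LYS21* (-0.17, SE 0.06), the last with an adjusted p under 0.05 in 8 of 22 alternatives, ranging up to 0.178.

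Metal and redox genes had more falls than rises. Of 23 genes of the iron regulon 11 fell and 3 rose, with a median of -0.14. *TIS11*, which destabilizes mRNAs of iron use, had 11.4, 15.1 and 12.8 CPM in Htt103Q [*SLX5*], against 31.3, 35.3 and 25.9 CPM in Htt25Q [*SLX5*] (log2 fold change -1.23, SE 0.13, adjusted p = 4.63e-05). *SIT1*, a siderophore transporter, was lower (-0.92, SE 0.12) and *HMX1*, the heme oxygenase, had 535, 372 and 467 CPM in Htt103Q [*SLX5*], against 222, 212 and 234 CPM in Htt25Q [*SLX5*] (1.04, SE 0.11). The smaller rises were *FET4* (0.36, SE 0.09) and *FIT1* (0.50, SE 0.16) and *FIT1* was not called without Htt25Q [*SLX5*] a (adjusted p = 0.0652) or Htt103Q [*SLX5*] b (0.0696). Of 23 redox defence genes 11 fell and 2 rose, with a median of -0.24. *SOD1*, the cytosolic superoxide dismutase, had 795, 976 and 960 CPM in Htt103Q [*SLX5*], against 1615, 1381 and 1429 CPM in Htt25Q [*SLX5*] (-0.70, SE 0.10), its copper chaperone *CCS1* was at -0.68 (SE 0.06) and *OYE2*, an NADPH oxidoreductase, at -0.71 (SE 0.07). *YAP1*, the activator of the oxidative stress response, had 356, 259 and 350 CPM in Htt103Q [*SLX5*], against 196, 194 and 185 CPM in Htt25Q [*SLX5*] (0.75, SE 0.10), opposite to most of the list. *GPX2* at 0.62 was the other rise, lost without Htt25Q [*SLX5*] b or c or Htt103Q [*SLX5*] a or b. Phosphate genes had 6 of 17 higher, with *PHO81*, *GIT1*, *PHO11* and *PHO12* at 0.50, 0.90, 1.29 and 1.05, and 3 lower, *PHO84*, *VTC1* and *VTC2* at -0.55, -0.30 and -0.33.

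Respiratory chain and tricarboxylic acid cycle genes had more falls than rises, where 26.6% of all tested genes were lower and 26.9% higher. Of 43 genes for the respiratory chain and ATP synthase that lie in the nucleus 15 fell, 3 rose and 25 did not pass the test, with a median of -0.09. *NDE2*, an external NADH dehydrogenase, had 50.7, 51.3 and 51.5 CPM in Htt103Q [*SLX5*], against 98.1, 93.1 and 91.8 CPM in Htt25Q [*SLX5*] (log2 fold change -0.88, SE 0.07, adjusted p = 8.24e-06). *INH1* (-0.65, SE 0.09), *COX9* (-0.61, SE 0.09) and *COX7* (-0.80, SE 0.12) were lower, and *ATP20*, *COX5A* and *COX12* higher by 0.42, 0.25 and 0.19. None of these rises passed without Htt103Q [*SLX5*] a (adjusted p = 0.0672, 0.0687 and 0.0527). Of 15 tricarboxylic acid cycle genes 7 fell, such as *LSC1* (-0.42, SE 0.06), *LSC2* (-0.39, SE 0.07) and *LPD1* (-0.41, SE 0.08). Of the 8 genes of the mitochondrial genome only *COX1* passed the filter, at under 1 CPM in every culture. Gluconeogenesis and acetate genes had 5 of 19 higher, *GUT2* (0.45) and *ADH2* (0.44) among them, and 5 lower, *MDH2* (-0.47) and *GUT1* (-0.39) among them, with 2 higher without Htt25Q [*SLX5*] a and 3 lower without Htt25Q [*SLX5*] b. Of 19 peroxisomal genes 5 rose, *CTA1*, the peroxisomal catalase, most clearly (0.80, SE 0.14) and *FOX2* (-0.34) and *SPS19* (-0.30) fell, with 8 higher without Htt103Q [*SLX5*] b and none lower without Htt25Q [*SLX5*] b. Hexose transporters were mixed, with 6 of 18 higher, with a log2 fold change of 2.30 in *HXT10*, the one with the smallest adjusted p, and 4 lower, *HXT1* (-0.72, SE 0.09), *HXT15* (-0.66, SE 0.11), *HXT5* (-0.65, SE 0.08), and the glucose sensor *RGT2* (-0.52, SE 0.07).

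The lists of vacuolar hydrolases, cell wall mannoproteins and eisosome genes had more falls than rises. The *DAN* and *TIR* mannoproteins, described above, had more rises than falls. Of 11 vacuolar hydrolase genes 8 fell, or 4 without Htt25Q [*SLX5*] a, with a median of -0.29. *APE1*, an aminopeptidase delivered by autophagy, had 89.2, 123 and 112 CPM in Htt103Q [*SLX5*], against 299, 261 and 282 CPM in Htt25Q [*SLX5*] (log2 fold change -1.38, SE 0.18, adjusted p = 0.000124). *CPS1* (-0.69, SE 0.08), *APE3* (-0.65, SE 0.08) and *ATG42* (-0.87, SE 0.19), other peptidases, fell, and the phosphatase gene *PHO8* was at 0.19, a rise lost without Htt25Q [*SLX5*] b (adjusted p = 0.0711) or c (0.065). Autophagy genes split, with 9 of 23 lower, or 5 without Htt25Q [*SLX5*] c, and 8 higher. *ATG39*, a receptor for autophagy of the nucleus, had 88.8, 75.3 and 90.5 CPM in Htt103Q [*SLX5*], against 41.4, 36.0 and 36.3 CPM in Htt25Q [*SLX5*] (1.16, SE 0.09, adjusted p = 9.4e-06). *ATG1*, the kinase that starts autophagy, was higher (0.89, SE 0.09) and *ATG33*, of mitophagy, lower (-0.69, SE 0.09). Cell wall mannoproteins had 8 of 15 lower and 1 higher, with a median of -0.24. *CCW12*, a major wall mannoprotein, had 5283, 6822 and 6019 CPM in Htt103Q [*SLX5*], against 9170, 9140 and 9200 CPM in Htt25Q [*SLX5*] (-0.60, SE 0.08). *CWP2* (-0.86, SE 0.10), *SCW4* (-0.58, SE 0.07) and *CIS3* (-0.72, SE 0.13) followed it, while *PIR1* had 1016, 1778 and 1294 CPM in Htt103Q [*SLX5*], against 739, 818 and 889 CPM in Htt25Q [*SLX5*] (0.74, SE 0.17). Eisosome and Sur7 genes, which organize furrows of the plasma membrane, fell in 6 of 9, with a median of -0.46, among them YNL194C (-1.32, SE 0.19), *LSP1* (-0.75, SE 0.13) and *NCE102* (-0.55, SE 0.09).

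All 10 histone genes were lower in Htt103Q [*SLX5*], with a median of -0.58. *HHT2*, for histone H3, had 523, 576 and 597 CPM in Htt103Q [*SLX5*], against 1056, 1021 and 1154 CPM in Htt25Q [*SLX5*] (log2 fold change -0.93, SE 0.08, adjusted p = 1.79e-05). *HHF2*, for H4, had 549, 628 and 526 CPM in Htt103Q [*SLX5*], against 886, 896 and 916 CPM in Htt25Q [*SLX5*] (-0.66, SE 0.07). *HHT1* (-0.81, SE 0.10) and *HTA1* (-0.55, SE 0.07) were lower as well, and all 10 stayed lower without the clone letter a libraries. Histone genes are transcribed in S phase. Of 18 G1/S genes 7 fell, or 4 without Htt25Q [*SLX5*] b, and 2 rose, with a median of -0.11. The cyclin gene *CLN1* had 71.0, 99.5 and 87.5 CPM in Htt103Q [*SLX5*], against 150, 144 and 143 CPM in Htt25Q [*SLX5*] (-0.76, SE 0.10) and *CLN3* was lower (-0.61, SE 0.11), whereas *POL30*, the sliding clamp of DNA replication (0.62, SE 0.09) and *RFA1* (0.42, SE 0.07) were higher. Of 17 G2/M and M/G1 genes 4 rose, *SIC1* (0.49, SE 0.08) and *CDC20* (0.50, SE 0.09) among them, and 3 fell, *CLB2* (-0.49, SE 0.08), *CLB1* (-0.45, SE 0.12) and *HOF1* (-0.27, SE 0.10), the last lost without Htt25Q [*SLX5*] b or Htt103Q [*SLX5*] a or c.

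Mating genes checked the state of the cells. None of 5 alpha-specific genes was called, with a median log2 fold change of -0.05, though 1 was higher without Htt103Q [V] c and 2 lower without Htt103Q [*SLX5*] b. *MF(ALPHA)1*, an alpha-factor gene named after its value was seen, had a level per length of 4394 ± 890 TPM in Htt103Q [*SLX5*] and 4092 ± 526 TPM in Htt25Q [*SLX5*]. The a-specific genes were low throughout. Of 7 on the list 5 passed the filter and 4 were higher, *AGA2* (log2 fold change 4.14, SE 0.46), *STE2* (1.14, SE 0.21), *ASG7* (0.88, SE 0.19) and *BAR1* (0.65, SE 0.16). Members near 0 in one group pass the filter only by being high in another, so these counts too are a description. Per length, the a-cell receptor gene *STE2* had 3.04 ± 0.603 TPM in Htt103Q [*SLX5*] and 1.26 ± 0.266 TPM in Htt25Q [*SLX5*], while the alpha-cell receptor gene *STE3* had 88.3 ± 14.4 TPM in Htt103Q [*SLX5*] and 94.5 ± 8.66 TPM in Htt25Q [*SLX5*]. Of 13 haploid-specific genes *FUS2* (1.36, SE 0.22) and *NEJ1* (0.56, SE 0.17) rose, *FAR1* (-0.50, SE 0.16) fell with overlap of the cultures, and 10 did not pass. The call of *FAR1* was lost without Htt25Q [*SLX5*] a (adjusted p = 0.0534) or b (0.099) or Htt103Q [*SLX5*] a (0.0569) or c (0.0952), and that of *NEJ1* without Htt25Q [*SLX5*] c (0.0507) or Htt103Q [*SLX5*] a (0.0525).

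The study assayed *HBT1*, *UIP4*, *UBC11* and *ACT1* by RT-PCR. *HBT1*, of mating projections, had 243, 272 and 314 CPM in Htt103Q [*SLX5*], against 342, 325 and 332 CPM in Htt25Q [*SLX5*] (log2 fold change -0.27, SE 0.11, adjusted p = 0.0505). *UIP4*, of the nuclear envelope, had 269, 281 and 308 CPM in Htt103Q [*SLX5*], against 374, 352 and 354 CPM in Htt25Q [*SLX5*] (-0.33, SE 0.13, adjusted p = 0.0549). Neither passed the test although the cultures did not overlap, and the adjusted p lay between 0.0192 and 0.283 for *HBT1* and between 0.0024 and 0.203 for *UIP4* across 22 alternatives. *UBC11*, a ubiquitin-conjugating enzyme, had 4.70, 5.43 and 5.85 CPM in Htt103Q [*SLX5*], against 3.24, 2.24 and 2.497 CPM in Htt25Q [*SLX5*] (0.99, SE 0.23, adjusted p = 0.00378). *ACT1*, actin, had 1813, 1869 and 1937 CPM in Htt103Q [*SLX5*], against 2141, 1988 and 1983 CPM in Htt25Q [*SLX5*] (-0.12, SE 0.06, adjusted p = 0.114).

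The same Htt lengths were also compared with empty vector in place of *SLX5*, in 3 cultures of Htt103Q [V] and 2 of Htt25Q [V] from the same integrant strains. That contrast shares no library with the one above, but it shares both strains. It called 3589 of 6321 genes, or 56.8%. Of these, 2856 were called in both contrasts, 84.5% of the calls with *SLX5* and 79.6% of those with vector, and all 2856 had the same direction. The change was smaller with *SLX5* at 2140 of the 2856, or 74.9%. All genes share the same few libraries, so this count is a description. Whether Htt103Q [*SLX5*] b, the culture nearest to Htt25Q [*SLX5*], bears on it was not tested. The 1414 genes higher in both had a median of 0.50 with *SLX5* and 0.58 with vector, and the 1442 lower in both -0.48 and -0.58.

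**Figure D5:**
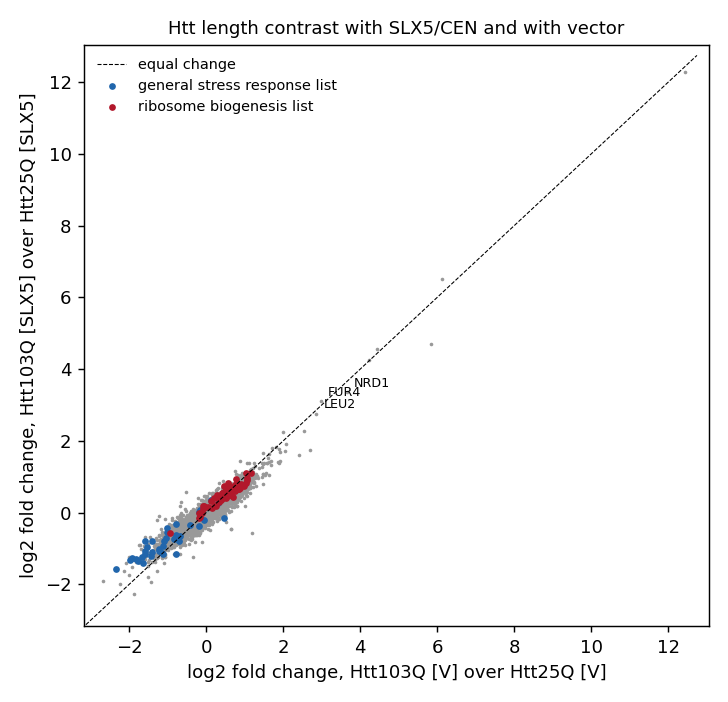
The log2 fold change of Htt103Q over Htt25Q with *SLX5/CEN* (vertical) against that with vector (horizontal) for the 5387 genes that averaged at least 10 CPM. Stress genes (blue) had a median of -0.79 with *SLX5* and -1.10 with vector, ribosome biogenesis genes (red) 0.56 and 0.54, and the dashed line marks equal change.

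By list, the general stress response had a median of -0.79 with *SLX5* and -1.10 with vector, and 32 of 38 genes changed less with *SLX5*. Trehalose genes had medians of -0.28 and -0.67, and all 7 changed less. Glycogen genes had -0.21 and -0.73. The Hsp70 group had 0.27 and 0.41, with 15 of 16 smaller. Ribosome biogenesis had 0.56 and 0.54, with 38 of 76 smaller, and the histones -0.58 and -0.55, with 3 of 10 smaller. So the lists differed in which contrast had the larger change, as a description without a test of the lists.

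No single gene passed the test of the difference between the contrasts. edgeR's quasi-likelihood test called 0 of 6321 genes, with a smallest adjusted p of 0.792, while 348 genes (5.51%) were under 0.05 before adjustment. With DESeq2 there were 0 calls, and with likelihood ratio tests among the genes that differed between any of the 4 groups there was 1. Leaving out Htt103Q [V] c gave 3. The genes with the smallest p were the Ty gene YPR137C-A, the vitamin B6 gene *SNZ1*, the iron gene *FIT3*, the meiotic gene *REC107* and *NDE2*. *SNZ1* had 196, 215 and 188 CPM in Htt103Q [*SLX5*], against 285, 315 and 308 CPM in Htt25Q [*SLX5*], a log2 fold change of -0.60 with *SLX5* and -1.15 with vector, which differed by 0.55 (SE 0.12). *FIT3* had 36.1, 41.4 and 43.5 CPM in Htt103Q [*SLX5*], against 56.8, 56.7 and 56.5 CPM in Htt25Q [*SLX5*], at -0.49 with *SLX5* and 0.09 with vector, a difference of -0.58 (SE 0.13). *REC107* stood at -0.45 and 0.05, *NDE2* at -0.88 and -1.33, and YPR137C-A, with copies that share its reads, at -1.25 and -0.33. With adjusted p = 0.792 for each of the 5, none of these differences passed.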

How the data were processed

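RNA of each culture was sequenced as a stranded library, with an mRNA kit according to the labels and a total RNA kit according to the methods. Per the labels and the study's methods, the authors used bcl2fastq 2.17, trimmed reads with Trimmomatic 0.36, used STAR 2.5.1 for alignment to S288C (EF4), and deposited expected counts per gene from RSEM 1.2.22. They also deposited TPM values per gene, to which the TMM scaling was not applied. TPM were used here only for levels per length, and every test of a difference between groups rested on the counts. The strand setting of the counting is not given in the sources used here. A further Htt25Q [V] library, set aside by the authors for its rRNA content, was not used here. The total of expected counts ran from 19942070 to 29440801 over the 11 libraries, which sets the precision of low genes. A library with no count for a gene allows up to 3 counts, a floor between 0.109 and 0.154 CPM, and this covers counting error only.

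Of the deposited expected counts 16.5% were not whole, and all were rounded. Genes were kept with filterByExpr over the 4 groups, scaled by TMM and fitted in edgeR 4.0.16 (R 4.3.3, limma 3.58.1) with a mean for each group over all 11 libraries, which share an estimate of the spread. The quasi-likelihood test gave each contrast, p-values were adjusted by the Benjamini-Hochberg method over 6321 genes, and a gene was called at an adjusted p under 0.05. A log2 fold change is Htt103Q over Htt25Q, its standard error (SE) came from the F statistic, and ± is the SD over cultures. The groups of a gene overlap where the CPM of any culture lies within the range of the other group. The p-values measure the spread between cultures of clones of a single strain per Htt length.

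The members and lists were chosen with earlier results of these data known. The text names 12 called rises and 12 called falls, the largest that averaged 10 CPM or more without overlap, up to 4 members of each of 46 lists by adjusted p, members called against the direction of most, 9 regulators, the RT-PCR, plasmid and marker genes, and the 5 genes with the smallest p for the difference between contrasts. Any other gene is said to be named after its value was seen. Symbols came from RefSeq R64, where 6048 of 7126 genes matched a locus tag. Coding lengths were equal in the files and RefSeq R64 for 99.8% of 6013 genes, and motif windows were read from that assembly. Alternatives were DESeq2 1.42.0, likelihood ratio tests among the genes that differed between any of the 4 groups, RLE size factors, other filters and thresholds, robust dispersions, unrounded counts, a fit of the compared groups alone, the clone letter as a block and the leaving out of libraries. Figures were drawn with matplotlib 3.10.9.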

Additional observations from a re-analysis of the deposited data

How the results depend on the processing

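Of 23 settings beside the one reported, none reversed the direction of a named gene's value where it was called in either fit. Reversals of values called in neither fit were not counted. Requiring a change of at least 1.5-fold left 1150 genes called in Htt103Q [*SLX5*] against Htt25Q [*SLX5*], 600 higher and 550 lower, and 1565 in the vector contrast. Without the 4 libraries of clone letter a, 2115 genes were called, 1051 higher and 1064 lower, and 2198 in the vector contrast. The difference between the contrasts had 1 call in likelihood ratio tests among the genes that differed between any of the 4 groups. Leaving out single libraries gave 2766 to 3643 calls (1358 to 1861 higher and 1370 to 1782 lower), 2519 to 3850 calls with vector, and 0 to 3 for the difference, the 3 without Htt103Q [V] c. The change of *SLX5* ran from -1.01 to -0.73. The share of calls that were higher was 50.3%, and between 48.8% and 52.2% over the settings. Of 260 named genes that were called, 59 lost their call in some setting, among them none of the 24 largest changes. The cause of the losses was not tested. The 24 had been chosen as called and without overlap in these same libraries. Genes under 10 CPM are limited by depth, and with them left out 3068 of 5391 were called. The clone letters name separate clones and were not shown to pair the cultures, since deviations correlated at 0.11 for a, 0.21 for b and -0.10 for c. With the clone letter as a replicate block 3327 genes were called, 3250 of them shared with the fit without it.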
